A study of Mus musculus with 3 samples.

Results

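The 9 genes described here encode transcription factors of the osteoblast lineage: Runx2, Sp7, Dlx3, Dlx5, Msx1, Msx2, Twist1, Twist2 and Creb3l1. They were found on the arrays through the RefSeq transcript accession of each probe. All 9 had a probe, 10 probes in all, among 20279 genes with a named probe. Runx2 had 2 probes and every other gene had 1, and each of these probes was spotted once on an array.

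The RNA came from mouse bone marrow cultures of primary mesenchymal stem cells (MSCs) and was read on 1-colour Agilent arrays, 1 array for each of 3 groups. The groups were MSCs at day 0, osteogenic cultures at day 3 and osteogenic cultures at day 21. The induced cultures had received ascorbic acid at 50 µg/mL and beta-glycerophosphate at 10 mM, whereas the labels name no strain, no genetic change and no number of animals. All 3 groups were labelled as coming from male mice 8 weeks old. With 1 array per day there was no replicate, so no difference between days was tested. Each signal below is Agilent's processed signal, a linear brightness after background subtraction within the array, with Feature Extraction's own error for that spot. Differences are log2 values of the later minus the earlier day after each array was scaled to its 75th percentile, and the error covers the array only, not cultures or animals. A gene counted as measured when it was well above background, by the scanner software's mark, on both arrays compared. A call means a difference of at least 2-fold, a rule of size.

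RUNX2 is the factor without which osteoblasts do not form, and SP7, also called osterix, acts after it in the same lineage. DLX and MSX proteins are homeodomain factors that respond to bone morphogenetic proteins (BMPs) and compete for similar DNA sites: DLX3 and DLX5 generally activate bone genes, whereas MSX1 and MSX2 are mostly repressors that hold cells in an immature, dividing state. TWIST1 and TWIST2 are basic helix-loop-helix proteins that bind RUNX2 and keep it inactive in early skeletal cells. CREB3L1, also called OASIS, sits in the endoplasmic reticulum until proteases release it, and it drives type I collagen expression in osteoblasts.

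The arrays carried the markers of more than one cell type. All 9 marrow stromal markers were above background on all 3 arrays, so the defining markers of the labelled cells were present. Their levels were not steady, with summed signals of 68941, 125185 and 178670 at day 0, day 3 and day 21. Relative to day 0, 2 of 9 were at least 2-fold higher at day 3, 3 of 9 at day 21, and 0 were lower. At day 21 these were Pdgfra (5.12), Ly6a (3.20) and Cxcl12 (2.31). Alpl and Ibsp, which encode alkaline phosphatase and bone sialoprotein, were not above background at day 0 and were above it at day 3 and day 21. Of the other osteoblast markers, Sp7 was above background on no array and Runx2 lay near the detection limit. Relative to day 0, Bglap2 was higher by 2.36 at day 3 and 3.58 at day 21, and Col1a1 was at 0.06 and -0.47. For day 0, day 3 and day 21 in turn, the summed signal of 6 adipocyte markers came to 435, 5679 and 204134, with 3, 6 and 6 of them above background. That of 6 markers of dividing cells was 14694, 7922 and 1250, all of them above background on every array. The sum of 6 chondrocyte markers was 12081, 13909 and 66369, with 3, 6 and 6 above background. Most of that sum was Col2a1 at day 0 (11455). At day 21 most of it was Comp, 6.67 higher than at day 0, and Ucma and Cnmd were at least 339-fold and 297-fold higher. Osteoclast markers summed to 6596, 12895 and 14251, with 4 of 6 above background on each array and Acp5 higher at day 21 by 3.57. Ctsk gave most of these sums (6276, 11302 and 11029). Macrophage markers summed to 10238, 9181 and 16108, mostly from Itgam (9633, 8333 and 15404). Csf1r, Itgam and Lyz2 were above background on every array, and Ptprc and Adgre1 on none. Endothelial markers summed to 3629, 4973 and 3230, with 3, 4 and 3 of 5 above background, and 0 of 4 skeletal muscle factors were above it on any array. Nearly all of the endothelial sum was Kdr (3588, 4902 and 3173). Sums led by 1 gene do not give the level of a cell type. In bulk RNA of this kind, fewer cells of a type and less RNA per cell cannot be told apart, and the part of these shifts in the results below was not tested. Arrays for day 0 and day 21 lay on the same slide and were scanned together. The day 3 array came from a separate slide and scan, and for comparisons with day 3 the slide's effect and the day's cannot be told apart.

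Promoter sequence from RefSeq (build GRCm38.p6) was found for 5 of the 9 genes: Runx2, Msx1, Msx2, Twist1 and Twist2. The 250 bases before the start are shown for Msx2 and Msx1, close relatives whose signals moved in opposite directions, and for Runx2, whose probes disagreed. Capitals mark the homeodomain core TAATTA and the E-box CANNTG in the Msx promoters, and the RUNX site TGTGGT, on either strand, in the Runx2 promoter.
Msx2, chr13:53472781-53473030, minus strand: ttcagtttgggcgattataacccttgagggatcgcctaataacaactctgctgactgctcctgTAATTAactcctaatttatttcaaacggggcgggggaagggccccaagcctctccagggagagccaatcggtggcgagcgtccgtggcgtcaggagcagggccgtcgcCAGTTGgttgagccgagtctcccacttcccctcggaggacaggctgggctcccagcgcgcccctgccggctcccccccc
Msx1, chr5:37824586-37824835, minus strand: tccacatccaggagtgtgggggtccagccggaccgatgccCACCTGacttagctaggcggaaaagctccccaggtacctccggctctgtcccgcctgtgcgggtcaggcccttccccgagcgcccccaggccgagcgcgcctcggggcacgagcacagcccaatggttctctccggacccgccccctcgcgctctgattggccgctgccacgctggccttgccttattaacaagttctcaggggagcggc
Runx2, chr17:44814628-44814877, minus strand: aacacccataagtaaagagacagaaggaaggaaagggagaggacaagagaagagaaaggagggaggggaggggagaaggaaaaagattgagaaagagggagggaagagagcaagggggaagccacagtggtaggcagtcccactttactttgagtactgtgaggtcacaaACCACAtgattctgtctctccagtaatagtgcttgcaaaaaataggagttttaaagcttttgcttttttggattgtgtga
In the Msx2 window TAATTA begins 187 bases before the start and an E-box begins 79 bases before it. The Msx1 window holds an E-box that begins 210 bases before the start and no TAATTA. In the Runx2 window the RUNX site lies on the opposite strand and begins 80 bases before the start, and an E-box, CACATG, that begins 78 bases before the start overlaps it. Among 32851 promoter windows of the same length, 4.84% held TAATTA, 14.05% TGTGGT and 66.2% an E-box. The windows were also searched for the GC box GGGCGG of SP proteins, present in 32.7% of all windows, and for the core TGACG of CREB-related proteins, present in 17.8%. The GC box occurred in the Msx1, Msx2, Twist1 and Twist2 windows, 4 times in that of Twist2, and TGACG in those of Msx2 and Twist1. The GC box and TGACG are not capitalised. A match of these letters is a description of the window and not evidence of binding.

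**Figure D1:**
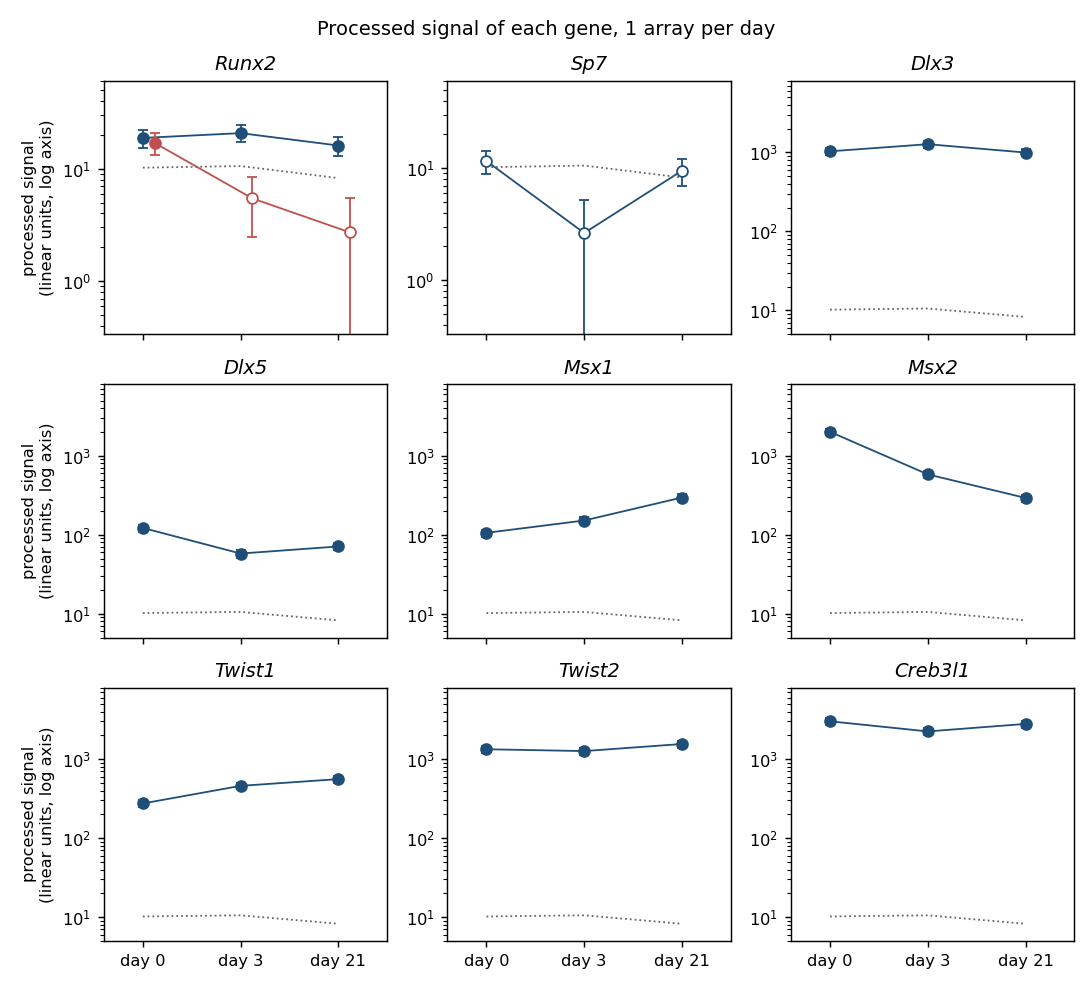
Processed signal (log axis) on the day 0, day 3 and day 21 arrays, 1 panel per gene. Filled points were well above background and open points were not, bars are Feature Extraction's error (some run below the axis), the dotted line is the lowest signal called above background, and red is the second Runx2 probe. Msx2 lies at 2008, 581 and 292 on the 3 days, Msx1 at 106, 151 and 296, and Runx2 and Sp7 lie near the dotted line.

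Runx2, the lineage's first regulator, was close to the detection limit throughout. Its brighter probe gave 18.7 ± 3.36 at day 0, 20.7 ± 3.58 at day 3 and 16.04 ± 3.23 at day 21, which is 1.84, 1.96 and 1.95 times the lowest signal called above background on those arrays. By this probe and scaling, day 3 was highest and day 21 lowest, but neighbours in that order did not differ beyond their error: day 3 minus day 0 was 0.12 ± 0.36 and day 21 minus day 0 was -0.37 ± 0.39. Day 21 minus day 3, the widest gap, was -0.49 ± 0.38, only a little more than its error. Day 3 minus day 0 turned to -0.46 under scaling to the spiked-in control RNAs and to -0.77 with both probes averaged. That average takes in a day 3 signal of the second probe (5.44) that was not above background. Probes spotted 10 times on each array showed how much less precise such dim signals were. At a signal between 10 and 40 the SD of a log2 difference, computed from repeat spots within each array, was 0.39. It was 0.10 at a signal of 100 or more and 0.19 over all such probes. Variation between arrays or slides is not in these SDs.

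The second Runx2 probe, assigned to the same transcript accession, did not follow the first. It gave 16.9 ± 3.62 at day 0 and was above background there, but 5.44 ± 2.95 at day 3 and 2.71 ± 2.73 at day 21, not above background on either. By that probe Runx2 was at least 1.63-fold lower at day 3 and at least 2.27-fold lower at day 21 than at day 0. Both bounds set the day 0 value, without its error, against the lowest signal called above background on the later array. Some probes without the mark lay above that lowest signal, as Sp7 did at day 21, so both bounds are approximate. The files do not say which part of the transcript either probe covers, so these arrays gave no agreed direction for Runx2.

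Sp7 had no usable level. Its probe gave 11.6 ± 2.69 at day 0, 2.64 ± 2.53 at day 3 and 9.49 ± 2.54 at day 21 and was not well above background on any array, so it has no difference. At day 0 and day 21 that signal was 1.14 and 1.15 times the lowest signal called above background, but the probe did not carry the mark. A probe without the mark does not show that the gene was silent in the cultures labelled as osteoblasts.

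Dlx3 stayed near its day 0 signal and Dlx5 was lower after induction. Dlx3 gave 1031 ± 103 at day 0, 1269 ± 127 at day 3 and 994 ± 99.5 at day 21. Relative to day 0 it differed by 0.28 ± 0.20 at day 3 and -0.20 ± 0.20 at day 21, both within 2 technical SDs of 0 by the SD over all replicated probes (0.19). By the SD of bright probes (0.10) the day 3 difference lies beyond 2 SDs, and it turned to -0.30 under spike-in scaling. Day 21 was lower than day 3 by more than that spread, at -0.48 ± 0.20, or -0.15 under spike-in scaling.

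Dlx5, a direct BMP response gene, gave 122 ± 12.5 at day 0, 57.8 ± 6.45 at day 3 and 71.1 ± 7.57 at day 21. The day 0 array was the highest, and day 3 and day 21 differed from each other by only 0.17 ± 0.22. Day 3 was lower than day 0 by 2.14-fold (-1.10 ± 0.22) and day 21 by 1.90-fold (-0.93 ± 0.21), so the call was made at day 3 only, and the 2 values lie either side of the 2-fold line by less than their errors. With normexp background correction the differences were -0.60 at day 3 and -0.49 at day 21, and neither reached 2-fold. Under spike-in scaling they were -1.68 and -1.18, both past 2-fold, and day 21 minus day 3 was 0.50.

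Msx2 and Msx1, related repressors, moved apart. Msx2 gave 2008 ± 201 at day 0, 581 ± 58.2 at day 3 and 292 ± 29.3 at day 21, and the 3 signals lie far outside each other's errors. It was 3.50-fold lower at day 3 than at day 0 (-1.81 ± 0.20), 7.61-fold lower at day 21 than at day 0 (-2.93 ± 0.20) and 2.17-fold lower at day 21 than at day 3 (-1.12 ± 0.20). At day 3, 98.2% of 12455 measured genes lay above it, and at day 21, 98.4% of 12387. The difference at day 21 against day 3 was -0.79, within 2-fold, under spike-in scaling.

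Msx1 gave 106 ± 10.8 at day 0, 151 ± 15.3 at day 3 and 296 ± 29.7 at day 21, the reverse order. It was 2.53-fold higher at day 21 than at day 0 (1.34 ± 0.21), and 9.43% of measured genes lay above it. The steps on the way were smaller than 2-fold, 0.50 ± 0.21 at day 3 relative to day 0, which turned to -0.08 under spike-in scaling, and 0.84 ± 0.21 at day 21 relative to day 3, which reached 1.17 under spike-in scaling. 

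Twist1 was higher after induction by less than 2-fold, and Twist2 stayed within its error, both with scaling to the 75th percentile. Twist1 gave 275 ± 27.6 at day 0, 459 ± 46.0 at day 3 and 559 ± 55.9 at day 21. Relative to day 0 it differed by 0.72 ± 0.20 at day 3 and 0.88 ± 0.20 at day 21, both above 2 technical SDs, whereas day 21 and day 3 differed by 0.16 ± 0.20. Under spike-in scaling they were 0.14 and 0.62, and with the 75th percentile of detected spots the day 21 value passed 2-fold (1.05). Twist2 gave 1335 ± 133 at day 0, 1266 ± 127 at day 3 and 1556 ± 156 at day 21, and was within its error at day 3 (-0.10 ± 0.20) and day 21 (0.07 ± 0.20) relative to day 0. Between day 21 and day 3 the difference was 0.17 ± 0.20. Under spike-in scaling Twist2 was at -0.68 at day 3 and -0.18 at day 21 relative to day 0, and at 0.50 at day 21 relative to day 3.

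Creb3l1 gave 3014 ± 301 at day 0, 2244 ± 224 at day 3 and 2794 ± 279 at day 21. It was lower at day 3 than at day 0 by 1.36-fold (-0.45 ± 0.20), more than 2 technical SDs but within 2-fold, and reached -1.03 under spike-in scaling. Day 21 differed from day 0 by -0.26 ± 0.20 and from day 3 by 0.19 ± 0.20.

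**Figure D2:**
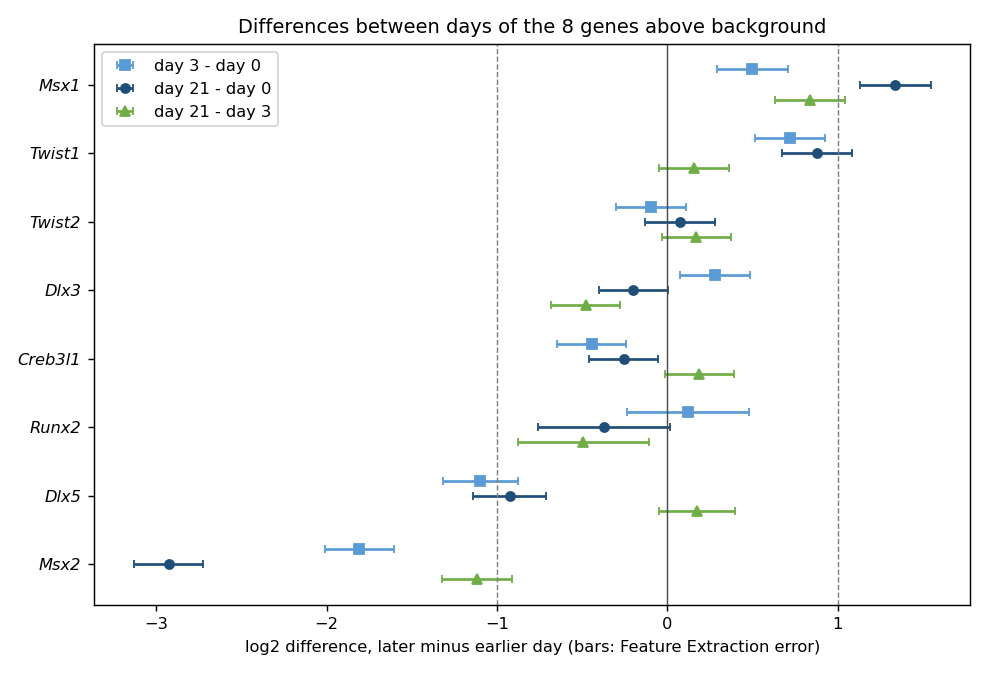
Log2 differences between days for the 8 genes above background, sorted by day 21 minus day 0. Bars are Feature Extraction's error of the difference and dashed lines mark 2-fold. Msx1 (1.34) and Msx2 (-2.93) lie at the ends, and Twist1, Twist2, Dlx3, Creb3l1 and Runx2 stay between the lines in all 3 comparisons.

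Counted together, 8 of the 9 genes were measured in each comparison. At day 3 against day 0, 0 were at least 2-fold higher, where 7.73% of all measured genes were, and 2 were at least 2-fold lower (Dlx5 and Msx2), where 7.85% were. In either direction that is 2 of 8, where 15.6% of all measured genes were called. By day 21 against day 0, 1 was higher (Msx1; 12.8% of all measured genes) and 1 lower (Msx2; 16.8%), or 2 of 8 where 29.5% were called in either direction. For day 21 against day 3, 0 were higher (7.75%) and 1 was lower (Msx2; 7.11%), with 14.9% of all measured genes called in either direction. The medians over the 8 genes were 0.01, -0.23 and 0.16 in these comparisons, beside -0.08, -0.21 and -0.10 over all measured genes. Under spike-in scaling the first of these turned to -0.57, beside -0.67 over all measured genes. Differences beyond 2 technical SDs were found in 5, 4 and 4 of the 8 genes, where 50.8%, 66.3% and 52.2% of all measured genes passed that mark. These counts use the SD over all replicated probes (0.19), and at the SD of dim probes (0.39) the Runx2 value at day 21 against day 3 would not pass. With 8 genes, counts of 0 to 2 say little beside those shares. Msx2 alone was called in all 3 comparisons. The comparisons share arrays and are not independent of each other.

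**Figure D3:**
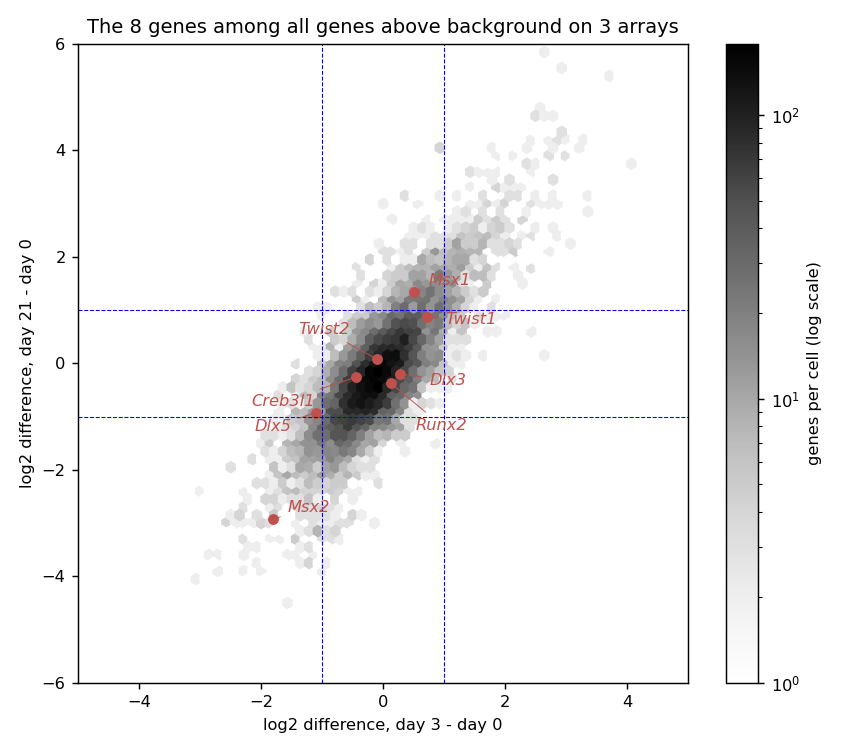
Log2 difference at day 21 against that at day 3, both relative to day 0, for 12221 genes above background on all 3 arrays (grey, darker where more genes lie; 53 genes fall outside the axes). Red points are the 8 factors and dashed lines mark 2-fold. Most lie in the dense centre, Msx2 lies at the lower left edge, and Msx1 is past 2-fold at day 21 only.

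Other members of the same protein families were as mixed. Of 16 relatives, 10 were measured at day 3 against day 0, with 2 at least 2-fold higher and 2 lower, and 11 at day 21 against day 0, again with 2 higher and 2 lower. Dlx2, which shares its homeodomain type with Dlx5, was lower at -1.96 at day 3 and -1.71 at day 21, with a signal of 131 at day 3 and 169 at day 21, against 501 at day 0. Runx1, the blood-lineage relative of Runx2, was at -1.09 and -0.82. Creb3l3 and Creb3l4, relatives of Creb3l1, were higher at day 3 by 2.00 and 1.60 and at day 21 by 1.56 and 1.60, and Creb3l2, which acts in cartilage, was lower at day 21 (-1.14). Dlx6, the genomic neighbour of Dlx5, was at -0.69 and -0.40, within 2-fold.

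Genes that act on RUNX2 did not move as a group. Of its 10 partners, 9 were measured at day 3 against day 0, with 2 higher and 0 lower, and 10 at day 21, with 2 higher and 1 lower. The vitamin D receptor gene Vdr was higher by 1.85 at day 3 and 1.98 at day 21, and Maf, a basic leucine zipper factor that cooperates with RUNX2, by 1.69 and 2.96. The stress and osteoblast factor Atf4 was at -0.95 at day 3 and was lower at day 21 (-1.24). Cbfb, the subunit RUNX2 needs to bind DNA firmly, was within 2-fold (-0.24 and -0.65). Of 11 genes whose products restrain or degrade RUNX2, 9 were measured in either comparison, with 1 higher and 1 lower at day 3 and 2 higher and 1 lower at day 21. The repressor gene Zfp521 was higher (1.19 and 1.42), the ubiquitin ligase gene Smurf1 was at -0.95 and then lower (-1.46), and its relative Wwp1 was at 0.60 and then higher (1.99). Hey1, a Notch target, was lower at day 3 (-1.42) and at 0.54 at day 21. Of TWIST partners and their ID inhibitors, 1 of 8 was higher at day 3 (Hand2, 1.07) and 1 of 8 lower at day 21 (the E-protein gene Tcf3, -1.07). Hand2 gave only 11.6 at day 0, close to the lowest signal called above background there (10.2). Of all measured genes, 7.73% were higher at day 3 and 16.8% lower at day 21.

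The BMP pathway feeds the DLX and MSX genes, and most of its called members were lower at day 3. Of 17 measured genes, 6 were at least 2-fold lower and 1 higher, with 1 more lower by a bound, at a median of -0.39. Bmpr1b, a type I receptor, was lower (-2.80), and the inhibitory SMADs Smad7 (-2.52) and Smad6 (-2.33) were lower too. Inhibitory SMADs restrain the pathway and are also induced by it. The ligand gene Bmp2 was at least 2.28-fold lower. The ID genes, common readouts of BMP signalling, were within 2-fold and mixed in sign, with Id1 at -0.71, Id2 at -0.34, Id3 at 0.22 and Id4 at 0.53. By day 21, 5 of 18 were lower and 3 higher, with a median of 0.03. Bmpr1b stayed the lowest (-3.70) and Smad7 was at -2.45, whereas the ligands Bmp6 (2.47), Bmp7 (2.29) and Bmp4 (1.29) were higher. Smad7 and Smad6 were thus lower on the same arrays as Msx2, and the relation was not tested.

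Other transcription factors of the lineage were mostly within 2-fold. At day 3 against day 0, 2 of 17 measured were higher and 2 lower, or 1 and 7 under spike-in scaling. On day 21 relative to day 0, 2 were higher and 3 lower, with 1 more in each direction by a bound. The Wnt effector Lef1 was lower at day 3 (-3.24) and at least 16.2-fold lower at day 21, and the AP-1 gene Fosl1 was lower too, by a value just past 2-fold at day 3 and at -2.98 at day 21. Foxc1, which regulates Msx2 in the skull, was higher (1.11 and 1.76), and the hedgehog target Gli1 was above background at day 21 only, at least 5.33-fold higher than at day 0. Vdr and Atf4 are in this list and in that of RUNX2 partners. Of the Snail and ZEB repressors 0 of 4 passed 2-fold in either comparison. By contrast, 2 of 8 adipocyte factors were higher at day 3 and 6 of 8 at day 21, with 1 more by a bound each time and 0 lower. Cebpa led them at day 21 (5.03), and Pparg was at -0.21 at day 3 and 1.92 at day 21. The cartilage factor Sox9 was higher by 1.48 and 1.24, or 0.90 and 0.98, within 2-fold, under spike-in scaling.

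Genes listed as bone targets were higher in part, and Runx2 and Sp7 were dim on the same arrays. Binding was not measured, and the relation was not tested. Of 10 measured at day 21 against day 0, 5 were at least 2-fold higher and 1 lower, where 12.8% and 16.8% of all measured genes were. A bound put 5 more above 2-fold and 1 below, and the median was 1.34, or 2.45 with bounds included. The near-identical osteocalcin genes Bglap2 and Bglap3 (3.58 and 3.56), which cannot be told apart with certainty, and osteopontin, Spp1 (2.74), were the highest of those measured. Bglap2 and Bglap3 gave nearly the same signals, 64.8 and 66.6 at day 0 and 856 and 867 at day 21. Both are counted here and at day 3, so 1 signal may be counted as 2 genes. The median of 1.34 lies between Col1a2 (0.28) and Tnfsf11 (2.40), so it falls if 1 of the pair is left out. By a bound, Ibsp was at least 63.7-fold, the collagenase gene Mmp13 at least 52.4-fold and Phex, an endopeptidase gene of bone, at least 11.5-fold higher. At day 3 against day 0, 4 of 10 were higher and 2 lower, where 7.73% and 7.85% of all measured genes were. A bound put 3 more higher, and the median of 0.45 turned to -0.14 under spike-in scaling. Col10a1 (-3.15) and osteoprotegerin, Tnfrsf11b (-1.94), were the lower ones. Col1a1, a target of CREB3L1 as well, was at 0.06 at day 3 and -0.47 at day 21.

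Transport genes of the secretory pathway, a setting in which CREB3L1 and its relatives act, had medians below that of all measured genes. This was not particular to them. A list of 10 reference genes had medians of -0.16 at day 3 and -0.45 at day 21 against day 0, with 2 of 10 lower at day 21. At day 3 against day 0, 0 of 14 passed 2-fold in either direction, with a median of -0.32, whereas under spike-in scaling 6 of 14 were lower, with a median of -0.90. At day 21, 2 of 14 were lower and 0 higher (Sec23a, -1.58; Arf4, -1.05), with a median of -0.58, beside -0.21 over all measured genes, and 4 of 14 were lower under spike-in scaling. The proteases that release CREB3L1 were within 2-fold, Mbtps1 at 0.43 and Mbtps2 at -0.51 at day 21.

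**Figure D4:**
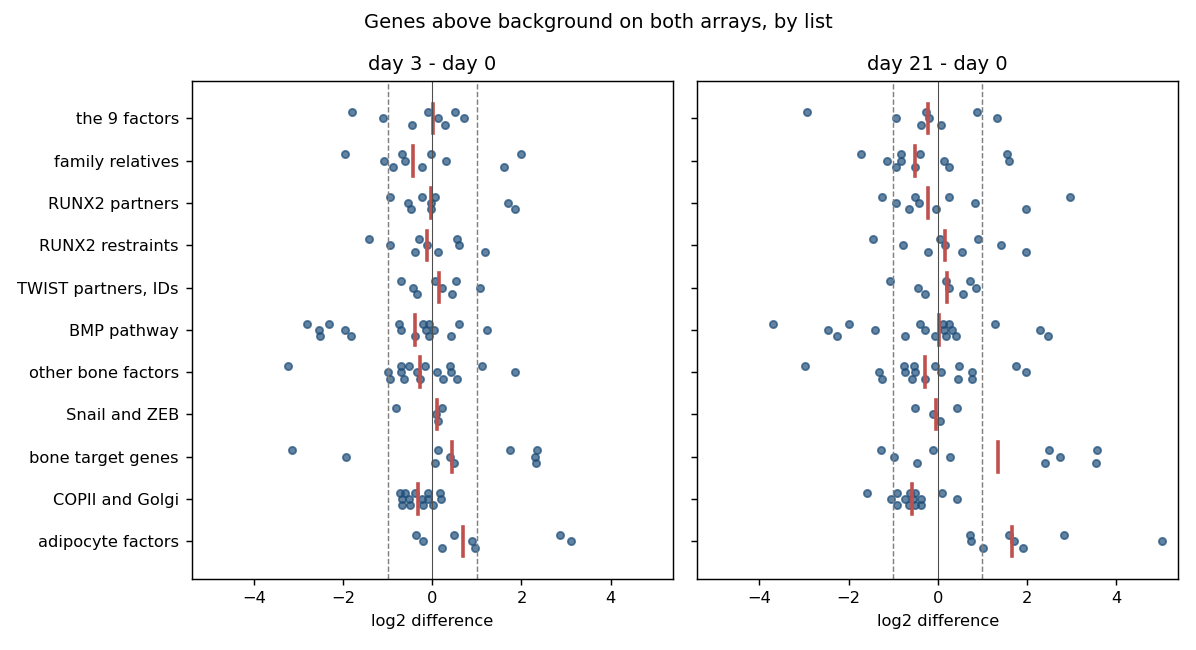
Log2 differences of the measured genes of each list at day 3 (left) and day 21 (right) relative to day 0. Each point is a gene, red bars are list medians and dashed lines mark 2-fold. The 8 measured factors centre near 0 (medians 0.01 and -0.23), bone target genes reach a median of 1.34 and adipocyte factors 1.66 at day 21. The bone target median counts Bglap2 and Bglap3 as separate genes.

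The genes whose pattern came nearest to each factor were found by the Euclidean distance of both log2 differences from day 0, over 12221 genes and 3 arrays. Genes with only a provisional symbol (Gm, Rik, LOC or clone names) were passed over as nearest genes but kept in the counts. Nearest to Msx2 were Coro1c (0.05), which encodes an actin-binding coronin, Loxl2 (0.06), a lysyl oxidase relative, and Sult4a1 (0.06). Within a distance of 0.2 there were 16 genes around Msx2, 81 around Dlx5, 89 around Msx1 and 165 around Twist1, but 441 to 654 around Dlx3, Creb3l1, Runx2 and Twist2, whose patterns are common ones. Nearest to Msx1 were Acad12 (0.01), Nupr1l (0.04) and Tmem205 (0.04). Nearest to Dlx5 were Pwwp2b (0.01), Fam174b (0.04) and Akap9 (0.04), and nearest to Twist1 were Rtl8b (0.01), Sorbs3 (0.02) and P3h3 (0.03). The nearest gene was Krtap19-4 for Dlx3, Arhgap23 for Creb3l1, Heatr6 for Runx2 and Ggnbp2 for Twist2, at distances of 0.02 or less. With 3 arrays such likeness is a description of these arrays.

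**Figure D5:**
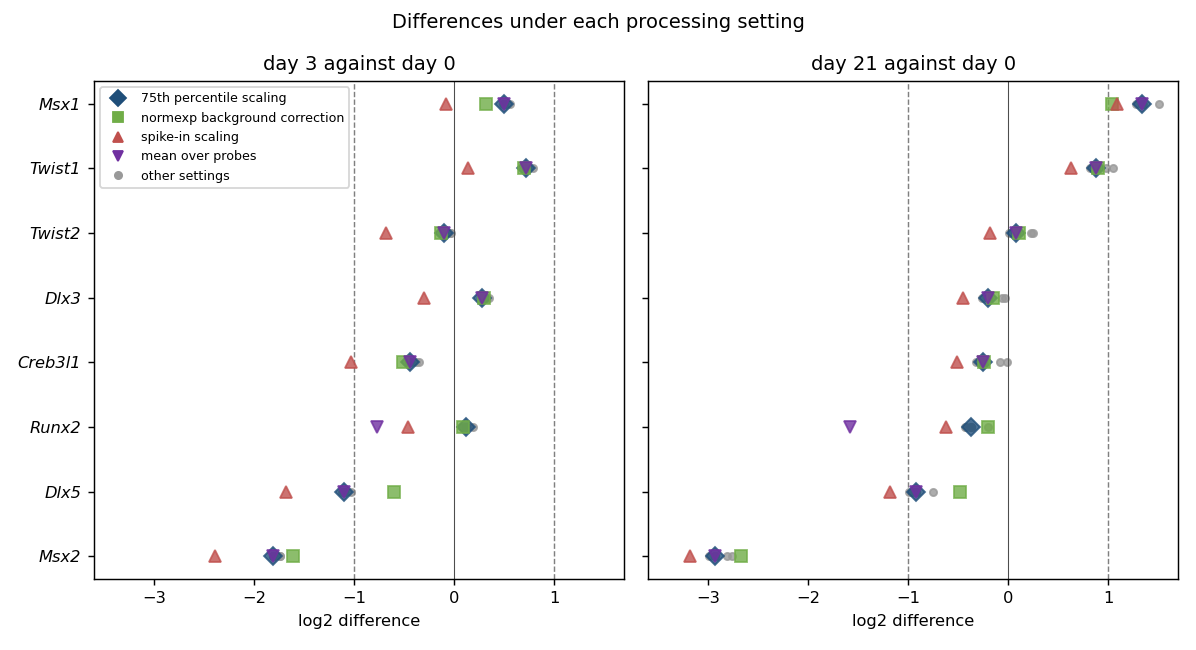
Log2 differences of the 8 factors at day 3 (left) and day 21 (right) relative to day 0 under each processing setting. Blue diamonds are the values given above, dashed lines mark 2-fold. Msx2 stays below -1 under every setting shown, Dlx5 crosses the line with normexp correction, and Runx2 moves to -1.58 at day 21 when its 2 probes are averaged. The second Runx2 probe was not above background at day 21.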

How the data were processed

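The authors deposited 1 Agilent Feature Extraction file per array with linear spot intensity, background-subtracted and detrended within the array per the file headers and not scaled between arrays. The version is 10.10.1.1 per the file headers and 12.0 per the submitters' processing notes. The deposited value table held the same intensity (largest difference 0).

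Log2 intensity minus the array's 75th percentile over 59305 non-control spots was used. That percentile was 172.2, 174.6 and 190.7 at day 0, day 3 and day 21. Spots marked as outliers were left out (none on a probe of the 9 genes), and a gene was represented by its brightest probe. A probe was above background when at least 50% of its spots were marked so. Technical spread came from 399 probes spotted 10 times within each array, so it holds no variation between arrays or slides. Probes were named through accessions in a RefSeq table of GRCm38.p6: 26755 probes, 20279 genes. The alternatives were normexp on the median signals with offset 50 (limma 3.58.1, R 4.3.3; the files hold no mean signal), 4 other scalings, averaged probes, marked spots kept, a floor, the value table and a 1.5-fold rule. The code that makes the calls was run on simulated data, which checks the code and not any difference between days. Python 3.11.15 and pandas 2.3.3 were used. The number of arrays, 1 per group, limits the precision.

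The 9 genes, the gene lists and the motifs were chosen with earlier results of these data known. The named genes are the 9 genes, up to 4 genes of each list with the largest difference in a comparison and the 3 nearest patterns. A gene that this rule names is not reported here. A few others, such as Cbfb, Id1, Dlx6, Runx1, Gli1, Col1a1, Mbtps1 and the genes given by a bound, were named for their role after their values were seen. Col1a2 was named for its place next to a median.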

Additional observations from a re-analysis of the deposited data

How the results depend on the processing

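Of 216 recomputed differences of the 8 measured genes, 182 moved by less than the technical SD of a difference (0.19) and 34 by more. Among these, 0 that had passed 2-fold changed sign. Settings that could not move these genes gave 24 of the 182 each: the value table, marked spots kept and a floor. Averaging of probes gave 21 more, and it could move Runx2 only, the 1 gene with 2 probes. Such values say nothing about stability. Spike-in scaling accounts for 24 of the 34, since it moved the median of all measured genes to -0.67 at day 3 and -0.47 at day 21 against day 0, instead of -0.08 and -0.21. The counts of calls are small, so 1 gene near the 2-fold line changes them. At day 3 against day 0, normexp left 1 gene lower, spike-in scaling gave 3 lower (Creb3l1 added) and a 1.5-fold rule gave 1 higher. For day 21 against day 0, the 75th percentile of detected spots gave 2 higher, a 1.5-fold rule 2 higher and 2 lower, and spike-in scaling and averaging of probes 2 lower each. The gene added by averaging was Runx2, whose second probe was not above background at day 21. For day 21 against day 3, spike-in scaling gave 1 higher and 0 lower, and a 1.5-fold rule 1 higher. Over all measured genes at day 3 against day 0, calls were 963 higher and 978 lower, 498 and 3432 under spike-in scaling and 582 and 550 with normexp. For day 21 against day 3 they were 987 and 906, 1648 and 436 under spike-in scaling and 613 and 466 with normexp. The offset of 50 added with normexp by itself shrinks differences of dim genes. Fewer calls there do not show the effect of background correction alone. Of all calls at day 21 against day 0, 43.2% were higher, against 28.7% under spike-in scaling and 54.4% with the 75th percentile of detected spots. Between day 21 and day 3 these shares were 52.1%, 79.1% and 62.6%. The medians of RUNX2 restraints (0.17), TWIST partners (0.22) and BMP genes (0.03) at day 21 against day 0 turned to -0.09, -0.04 and -0.22 under spike-in scaling. Those of TWIST partners (0.14) and Snail and ZEB repressors (0.10) at day 3 turned to -0.44 and -0.48. At day 3 against day 0, spike-in scaling also raised the number lower to 5 of 10 relatives, 3 of 9 RUNX2 partners, 2 of 9 RUNX2 restraints, 2 of 8 TWIST partners and 8 of 17 BMP genes, and left 0 higher in the last 3 of these lists. By day 21, 5 of 11 relatives were lower. The second Runx2 probe, tried after the data were seen, gave bounds only. No paired analysis was possible because each day had 1 array. The cause of these shifts was not tested.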
